A study of Mus musculus with 8 samples.

Results

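The 10 genes described here encode antioxidant enzymes or are well-known targets of the transcription factor NRF2. They are the superoxide dismutases *Sod1*, *Sod2* and *Sod3*, the peroxide-removing enzymes *Cat*, *Gpx1* and *Gpx3*, and the inducible NRF2 targets *Hmox1*, *Nqo1*, *Gclm* and *Txnrd1*. They were taken by symbol from a table of 54658 gene symbols, and all 10 were found and passed the filter on low counts. RNA-Seq had been performed on primary articular chondrocytes, the cells of joint cartilage, from the femoral heads of wild-type mice aged 3 weeks. In the treated group (n = 4), the cells received IL-1β, a proinflammatory cytokine linked to osteoarthritis, at 1 ng/mL for 24 h, and in the control group (n = 4) they received vehicle over the same time. Whether the samples came from separate animals or cultures, or from pooled animals, is not given in the sources used here, so p-values measure the spread between these samples, which may be technical.

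Superoxide dismutases convert superoxide to hydrogen peroxide, which catalase and the glutathione peroxidases then break down. NRF2 (*Nfe2l2*) is held at a low level by KEAP1, which passes it on for degradation. When KEAP1 is modified by electrophiles or oxidants, NRF2 accumulates, pairs with small MAF proteins and binds antioxidant response elements (AREs) in its target genes. In cartilage, IL-1β is known to activate NF-κB and to raise the production of reactive oxygen and nitrogen species by chondrocytes.

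To show which binding motifs lie close to the starts of these genes, RefSeq promoter windows (GRCm38.p6, 250 bases before to 50 after the start) were searched on both strands. The table held 10 windows for 8 of the genes, and *Sod3* and *Hmox1* had none. The ARE core TGACNNNGC was found in 3 of these 8 genes, against 14.0% of the 27018 genes in the table, and the AP-1 motif TGANTCA in 0 of 8, against 8.98%. These motifs can share bases, since an ARE core may hold an AP-1 motif. A wider ARE motif, TGANNNNGC, was found in the same 3 of 8 genes, a share below the 45.1% of the genes in the table. The NF-κB motif was found in *Sod2*, *Cat*, *Gpx1* and *Gpx3*, which is 4 of 8, against 9.55%. The matches below are shown as the NF-κB motif of the dismutase with the largest rise and the ARE core of each gene that held it. Each runs 5′ to 3′ on the strand of the gene, with the motif in capitals. The ARE cores stand on the opposite strand and read as their reverse complement, while the NF-κB match in *Sod2* reads on both strands.
Sod2, NF-κB, chr17:13007746-13007775, + strand: cggggcggacGGGGTTCCCCgaggcggggc
Sod1, ARE core, chr16:90220696-90220724, + strand: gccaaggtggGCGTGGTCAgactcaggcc
Gclm, ARE core, chr3:122245413-122245441, + strand: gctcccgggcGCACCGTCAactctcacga
Txnrd1, ARE core, chr10:82859104-82859132, + strand: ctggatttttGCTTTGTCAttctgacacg
The motif began 83 bases before the RefSeq start in *Sod2*, 56 in *Sod1*, 134 in *Gclm* and 92 in *Txnrd1*, where it lay in 1 of 3 windows. A match is a description of these letters and not a measured binding site. Genes with the ARE core included *Sod1*, whose counts did not change beyond their spread. Those with the NF-κB motif included *Gpx3*, which fell, and *Cat* and *Gpx1*, which rose modestly. The window of *Nqo1*, which rose, held none of these motifs. Bases outside the windows were not searched, so this does not show that *Nqo1* lacks them. Whether motifs and changes were linked was not tested.

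IL-1β was followed by higher counts of most of the 10 genes. Adjusted p-values were under 0.05 (edgeR's quasi-likelihood test, Benjamini-Hochberg over all genes tested) with a rise in 8 genes, against 20.4% of the 14404 genes tested, and with a fall in 1, *Gpx3*, against 19.8%. *Sod1* did not pass. *Sod2*, *Sod3* and *Hmox1* also had a log2 fold change above 1 and were counted as differentially expressed genes (DEGs), against 2.86% of the genes tested, and none was a DEG in the other direction, against 2.35% (5.21% in either direction). All 4 IL-1β samples lay above all 4 vehicle samples in 8 genes, against 18.7% of the genes tested (36.8% apart in either direction). The median log2 fold change was 0.52 over the 10 genes and -0.0012 over all genes tested. These are bulk samples, in which fewer cells of a type and less RNA per cell cannot be told apart.

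**Figure D1:**
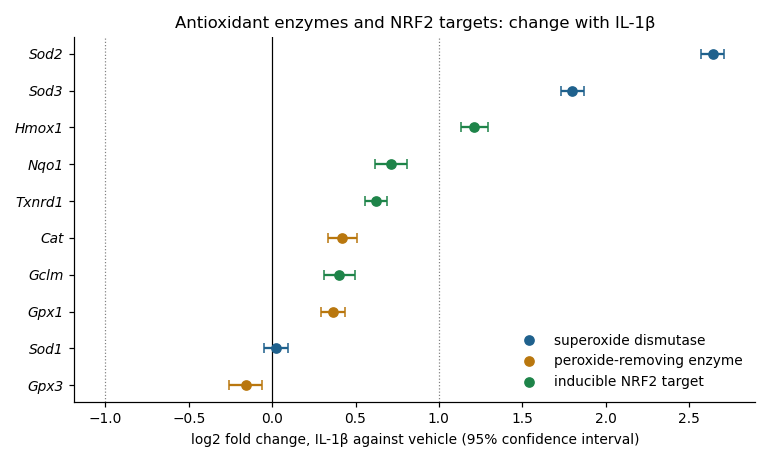
The log2 fold change between IL-1β and vehicle is plotted for each gene with its 95% confidence interval (n = 4 per group), coloured by role, with dotted lines at log2 fold changes of -1 and 1. *Sod2*, *Sod3* and *Hmox1* lie above 1, *Sod1* at 0.02 has an interval that spans 0, and *Gpx3* at -0.16 lies below 0.

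The superoxide dismutases did not change alike, with large rises in *Sod2* and *Sod3* and none beyond the spread in *Sod1*. *Sod2*, on chromosome 17 from 13006846 to 13040063 (GRCm38), encodes the manganese enzyme of the mitochondrial matrix. Its abundance, given as CPM (read counts scaled to a common library total, with TMM factors), was 668, 685, 711 and 695 in IL-1β replicates 1 to 4 and 109, 113, 113 and 108 in the vehicle replicates. The groups were far apart, and the spread within each was small. The means were 689.8 ± 18.4 and 110.5 ± 2.62 CPM (SD, n = 4), which is a 6.24-fold difference and a log2 fold change of 2.64 (SE 0.0340, edgeR adjusted p = 4.03e-30). By the size of this rise *Sod2* ranked 66th among the genes tested.

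*Sod3*, on chromosome 5 from 52363791 to 52371418, encodes the secreted enzyme that binds the extracellular matrix. It measured 780.0, 799.6, 846 and 816 CPM with IL-1β and 224, 239, 232 and 235 CPM with vehicle. Here too every IL-1β sample exceeded every vehicle sample by a wide margin. The log2 fold change was 1.80 (SE 0.0333, edgeR adjusted p = 2.05e-26), a 3.49-fold difference between means of 810.5 ± 28.1 and 232.6 ± 6.29 CPM (SD, n = 4).

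*Sod1*, on chromosome 16 from 90220754 to 90226329, encodes the copper and zinc enzyme of the cytosol. It measured 236, 237, 239.6 and 257 CPM with IL-1β and 250.8, 241, 225 and 236 CPM with vehicle, and the groups overlapped. The log2 fold change was 0.02 with a 95% confidence interval of -0.05 to 0.10 (SE 0.0356, edgeR adjusted p = 0.655). A change as large as that of the other dismutases lies outside this interval. Its copper chaperone *Ccs* had a log2 fold change of -0.17 (SE 0.0772, edgeR adjusted p = 0.0845), which among the alternatives passed the threshold only without vehicle replicate 2 (adjusted p = 0.0156). Among genes of copper delivery, *Atox1* rose by 0.19 on the log2 scale (SE 0.0550, edgeR adjusted p = 0.00586) and *Atp7a*, a copper pump, by 0.31 (SE 0.0479, edgeR adjusted p = 3.76e-06).

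Of the peroxide-removing enzymes, the intracellular ones rose modestly. *Cat*, on chromosome 2 from 103453849 to 103485160, encodes catalase of the peroxisome. It measured 65.8, 62.3, 66.2 and 62.0 CPM with IL-1β and 49.0, 48.9, 48.7 and 44.9 CPM with vehicle. The groups did not overlap, and vehicle replicate 4 stood below the rest of its group. Its rise was 0.42 on the log2 scale (SE 0.0426, edgeR adjusted p = 2.68e-09), or 1.34-fold.

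*Gpx1*, on chromosome 9 from 108338903 to 108340343, encodes the main intracellular glutathione peroxidase, a selenoprotein. With IL-1β it measured 119, 127, 128 and 124 CPM, against 93.6, 102, 96.4 and 95.3 CPM with vehicle, with no overlap. *Gpx1* rose by 0.36 on the log2 scale (SE 0.0357, edgeR adjusted p = 1.42e-09), or 1.29-fold. *Gpx3*, on chromosome 11 from 54902453 to 54910377, encodes the secreted glutathione peroxidase, also a selenoprotein. It measured 43.9, 47.6, 48.9 and 51.0 CPM with IL-1β and 49.4, 56.3, 53.3 and 55.5 CPM with vehicle, so that IL-1β replicate 4 lay above vehicle replicate 1. It fell by 0.16 on the log2 scale, with a 95% confidence interval of -0.26 to -0.06 (SE 0.0484, edgeR adjusted p = 0.00955), a fitted fold of 0.896.

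The 4 inducible NRF2 targets all rose, by different amounts. *Hmox1*, on chromosome 8 from 75093621 to 75100589, encodes heme oxygenase-1, which cleaves heme to biliverdin, iron and carbon monoxide. It measured 949, 844, 809 and 809 CPM with IL-1β and 362, 372, 377 and 363 CPM with vehicle. IL-1β replicate 1 was the highest, and the groups were apart in every sample. The means were 853 ± 66.3 and 368 ± 7.24 CPM (SD, n = 4), with a log2 fold change of 1.21 (SE 0.0395, edgeR adjusted p = 1.95e-20), or 2.32-fold.

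*Nqo1*, on chromosome 8 from 107388225 to 107403206, encodes a quinone reductase and is a standard readout of NRF2. It measured 100.1, 85.8, 85.7 and 87.2 CPM with IL-1β and 57.0, 54.8, 52.2 and 53.5 CPM with vehicle, with IL-1β replicate 1 again the highest. *Nqo1* rose by 0.71 on the log2 scale (SE 0.0469, edgeR adjusted p = 2.65e-13), or 1.64-fold. *Txnrd1*, on chromosome 10 from 82833951 to 82897712, encodes the cytosolic thioredoxin reductase. Its samples lay at 405, 400.3, 393 and 383 CPM with IL-1β and at 257, 267, 252 and 250.5 CPM with vehicle. It rose by 0.62 (SE 0.0324, edgeR adjusted p = 1.38e-15), or 1.54-fold, with little spread in either group.

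*Gclm*, on chromosome 3 from 122245557 to 122270732, encodes the modifier subunit of glutamate-cysteine ligase, the rate-limiting enzyme of glutathione synthesis. It measured 98.6, 90.4, 82.1 and 85.4 CPM with IL-1β and 67.7, 68.4, 64.6 and 67.6 CPM with vehicle. The groups did not overlap, although the IL-1β samples were more dispersed than the vehicle samples. *Gclm* rose by 0.40 on the log2 scale (SE 0.0457, edgeR adjusted p = 2.41e-08), or 1.32-fold. Other annotated genes, among them a pseudogene on the same strand, overlap 4.71% of the exon bases of *Gclm*, and the other 9 genes have no such overlap.

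**Figure D2:**
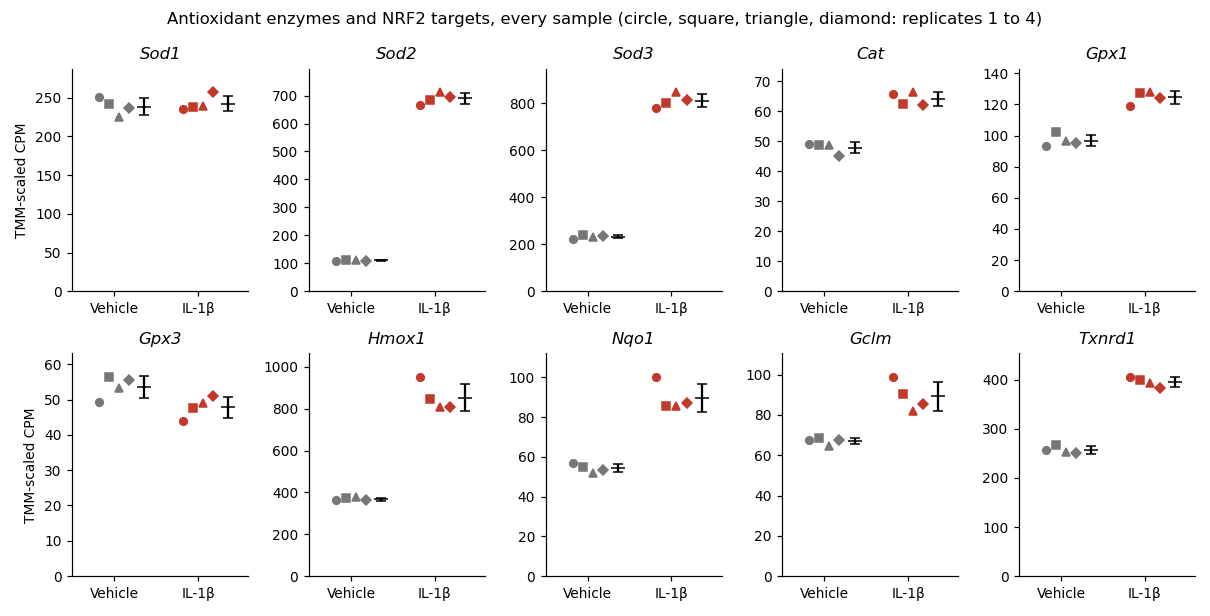
TMM-scaled CPM of each gene is plotted for every sample (vehicle grey, IL-1β red, replicates 1 to 4 by symbol), with the mean ± SD (n = 4) as a black bar beside each group and axes that start at 0. The groups are apart in 8 panels and overlap for *Sod1* and *Gpx3*, and IL-1β replicate 1 is highest in the panels of *Hmox1*, *Nqo1*, *Gclm* and *Txnrd1*.

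Levels were compared between genes as CPM per kilobase of summed exons. With vehicle, *Hmox1* was the highest at 210.4 CPM per kilobase, followed by *Gpx1* at 67.2, *Sod3* at 62.2, *Sod1* at 60.0, *Txnrd1* at 36.3, *Nqo1* at 35.02, *Gpx3* at 29.6, *Cat* at 18.3, *Sod2* at 11.04 and *Gclm* at 10.7. In this order, *Sod3* and *Sod1*, *Txnrd1* and *Nqo1*, and *Sod2* and *Gclm* overlapped between samples, and the other neighbours were apart. With IL-1β, the levels per kilobase were 487 for *Hmox1*, 217 for *Sod3*, 86.4 for *Gpx1*, 68.9 for *Sod2*, 61.0 for *Sod1*, 57.7 for *Nqo1*, 55.8 for *Txnrd1*, 26.4 for *Gpx3*, 24.5 for *Cat* and 14.2 for *Gclm*. Here *Sod1* overlapped with *Nqo1*, *Nqo1* with *Txnrd1*, and *Gpx3* with *Cat*, and the other neighbours were apart.

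*Sod2* thus moved from the lowest pair to the fourth place on this scale. The order of the dismutases depended on the length used, because the summed exons of *Sod1* span 3970 bases and its principal transcript 641. Per kilobase of principal transcript, *Sod1* was at 372 (vehicle) and 378 (IL-1β), while *Sod2* was at 18.9 and 118. On that scale *Sod1* exceeded *Sod2* in both groups. *Hmox1* stood at 235 and 544 CPM per kilobase of principal transcript, below *Sod1* with vehicle and above it with IL-1β. Other neighbours changed as well. *Txnrd1*, at 72.8 (vehicle) and 112 (IL-1β) on that scale, stood apart above *Nqo1* at 35.02 and 57.7. With IL-1β, *Gpx3* and *Cat* were apart on that scale, while *Sod2* overlapped with *Gpx1*, and *Gpx1* with *Txnrd1*.

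To test whether a gene changed more than a relative, the ratio of their counts was taken within each sample, which does not depend on library scaling, and compared between groups by an exact permutation test, two-sided, over 6 pairs. The smallest p this design allows is 0.0286. The ratio of *Sod2* to *Sod1* was 0.435 to 0.5005 with vehicle and 2.71 to 2.97 with IL-1β, a log2 difference of 2.62 (exact permutation p = 0.0286, adjusted p = 0.0343). The ratio of *Sod3* to *Sod1* went from 0.894 to 1.03 with vehicle and from 3.18 to 3.53 with IL-1β, a log2 difference of 1.78 with the same p-values. For both ratios, all 4 IL-1β samples therefore lay above all 4 vehicle samples.

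*Gpx3* relative to *Gpx1* lay at 0.528 to 0.583 with vehicle and at 0.370 to 0.412 with IL-1β, a log2 difference of -0.53 (exact permutation p = 0.0286, adjusted p = 0.0343). Thus the secreted and the intracellular peroxidase shifted apart, and the groups of this ratio did not overlap even though those of *Gpx3* itself did. *Txnrd1* relative to *Txn1*, the thioredoxin it reduces, was 1.32 to 1.39 with vehicle and 1.75 to 2.04 with IL-1β, a log2 difference of 0.51 with the same p-values. *Hmox1* relative to *Hmox2*, the constitutive heme oxygenase, was 7.66 to 8.55 and 22.0 to 26.1, a log2 difference of 1.52 with the same p-values. *Hmox2* itself fell by 0.31 on the log2 scale (SE 0.0457, edgeR adjusted p = 2.50e-06), and 40.2% of its exon bases are shared with another annotated gene.

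The subunits of glutamate-cysteine ligase showed no difference in change beyond the spread. *Gclm* relative to *Gclc*, the catalytic subunit, lay at 1.74 to 1.83 with vehicle and at 1.71 to 1.80 with IL-1β, and the groups overlapped. The log2 difference was -0.03 (exact permutation p = 0.314, adjusted p = 0.314). *Gclc* had risen by 0.42 on the log2 scale (SE 0.0489, edgeR adjusted p = 3.15e-08), close to the 0.40 of *Gclm*.

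**Figure D3:**
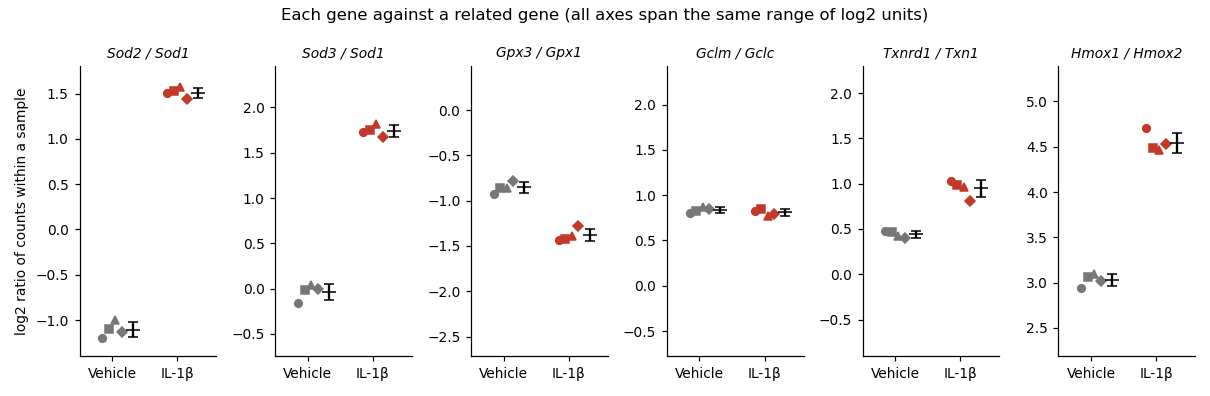
The log2 ratio of the counts of each pair of genes within a sample is plotted for vehicle (grey) and IL-1β (red), with symbols for replicates 1 to 4, the mean ± SD (n = 4) as a black bar and the same span of log2 units on each axis. The groups are apart in 5 pairs, with the ratio of *Gpx3* to *Gpx1* lower after IL-1β, and overlap for *Gclm* to *Gclc*.

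NRF2 is known to be controlled mostly through its protein stability, which counts do not measure. Among 10 genes of NRF2 and its regulators, 7 rose, 0 fell and 3 did not pass (*Mafk*, *Rbx1* and *Cul3*). Of all genes tested, 20.4% rose and 19.8% fell. The median log2 fold change of the list, which holds partners and inhibitors of NRF2 alike, was 0.37. *Nfe2l2* measured 218, 219.5, 221 and 219 CPM with IL-1β and 176, 178, 179 and 179.7 CPM with vehicle. Its samples were tightly grouped and apart, with a log2 fold change of 0.30 (SE 0.0290, edgeR adjusted p = 1.02e-09). *Keap1*, whose product passes NRF2 on for degradation, rose as well, with a log2 fold change of 0.29 (SE 0.0406, edgeR adjusted p = 1.12e-06). The largest rises of the list were those of *Maff*, a small MAF partner, at 0.91 and *Sqstm1*, whose product p62 binds KEAP1, at 0.66 (edgeR adjusted p = 1.77e-13 and 9.08e-18).

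In the glutathione system, 18 of 23 genes passed the filter on low counts, of which 10 rose, 2 fell and 6 did not pass the test (20.4% and 19.8% of all genes tested rose and fell), with a median log2 fold change of 0.19. *Slc7a11*, the cystine transporter that supplies cysteine for glutathione, measured 143, 128, 119 and 123 CPM with IL-1β and 51.7, 52.1, 49.1 and 52.7 CPM with vehicle. Its log2 fold change was 1.31 (SE 0.0467, edgeR adjusted p = 1.58e-19), and IL-1β replicate 1 was the highest here as well. *Glrx*, a glutaredoxin, rose by 1.99 (edgeR adjusted p = 5.36e-18) and *Mgst2*, a microsomal glutathione transferase, by 1.76 (edgeR adjusted p = 4.68e-06), the latter from 8 to 14 reads per vehicle sample. The lower genes were *Gpx7* at -0.26 and *Chac1*, which degrades glutathione, at -0.13. *Gpx4*, which reduces lipid peroxides, had a log2 fold change of 0.10 (edgeR adjusted p = 0.0226) with overlapping groups, and this call was lost under 5 alternatives (adjusted p = 0.0504 to 0.0933).

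All 13 genes of the thioredoxin and peroxiredoxin system were tested, of which 7 rose, 2 fell and 4 did not pass, with a median log2 fold change of 0.11. Over all genes tested the shares were 20.4% higher and 19.8% lower, and the share of this list that fell was near the latter. *Prdx5* and *Prdx6*, both peroxiredoxins, had the largest rises at 0.82 and 0.77 (edgeR adjusted p = 2.03e-17 and 4.78e-18). *Srxn1*, which repairs overoxidised peroxiredoxins, rose by 0.62 (SE 0.0348, edgeR adjusted p = 8.26e-15). *Prdx1* and *Txn1* rose by 0.21 and 0.12. *Txnip*, an inhibitor of thioredoxin, fell by 0.29 on the log2 scale (SE 0.0298, edgeR adjusted p = 3.14e-09), and the mitochondrial *Txn2* fell by 0.09, a call that was lost without IL-1β replicate 2 (adjusted p = 0.0634).

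Glutathione and thioredoxin are both reduced at the expense of NADPH. Of 6 genes of NADPH supply, 5 rose, 0 fell and 1 (*Me1*) did not pass, with a median log2 fold change of 0.35, against 20.4% higher and 19.8% lower over all genes tested. With DESeq2, 4 rose, and 4 to 5 rose with 1 sample left out. *Pgd* of the pentose phosphate pathway rose by 1.02 (SE 0.0312, edgeR adjusted p = 3.83e-21), from a mean of 165 ± 3.00 to 334 ± 6.86 CPM (SD, n = 4), and *Taldo1* by 0.55 (edgeR adjusted p = 6.78e-15).

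Among 15 other NRF2 targets, 14 were tested, of which 10 rose, 2 fell and 2 did not pass, and the median log2 fold change was 0.75. All genes tested had 20.4% higher and 19.8% lower. The rises in this list numbered 9 with DESeq2, 8 with a CPM above 1 in all 8 samples and 8 to 9 with 1 sample left out. *Fth1*, the heavy chain of ferritin that stores iron, measured 11067, 10373, 11583 and 11712 CPM with IL-1β and 2400.5, 2442, 2328 and 2298 CPM with vehicle. Its log2 fold change was 2.24 (SE 0.0300, edgeR adjusted p = 9.86e-30), though reads of *Fth1* may be shared with near-identical copies in the genome. *Aldh3a1*, an aldehyde dehydrogenase, rose by 2.69 (SE 0.307, edgeR adjusted p = 2.71e-08) from 4 to 7 reads per vehicle sample. The lower genes were *Ugdh* at -0.28 and *Ephx1* at -0.27. Around heme and iron, named after their values were seen, the heme transporter *Slc48a1* had a log2 fold change of 1.10, the biliverdin reductases *Blvrb* and *Blvra* had 0.60 and 0.15, the latter not past the threshold (edgeR adjusted p = 0.326), and the ferritin light chain *Ftl1* had 0.31.

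Helpers of the 10 genes are copper carriers, the selenoprotein machinery and *Hmox2*. Of these 11 genes, 3 rose, 2 fell and 6 did not pass, shares near the 20.4% higher and 19.8% lower of all genes tested, with a median log2 fold change of -0.06. *Sepsecs*, which makes selenocysteine on its tRNA, fell by 0.37 on the log2 scale (SE 0.0792, edgeR adjusted p = 3.20e-04). Of 15 genes of superoxide- and peroxide-producing oxidases, 3 passed the filter, of which 2 rose and 0 fell, against 20.4% and 19.8% of all genes tested. *Xdh*, xanthine dehydrogenase, measured 67.3, 69.5, 71.4 and 75.8 CPM with IL-1β and 11.8, 14.0, 13.3 and 12.5 CPM with vehicle, with a log2 fold change of 2.46 (SE 0.0562, edgeR adjusted p = 3.59e-24). *Cyba* rose by 0.74 (edgeR adjusted p = 1.87e-06). The NADPH oxidase genes *Cybb* and *Nox4* had 0 to 1 and 0 to 7 reads per sample, too few to show a difference at this depth.

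**Figure D4:**
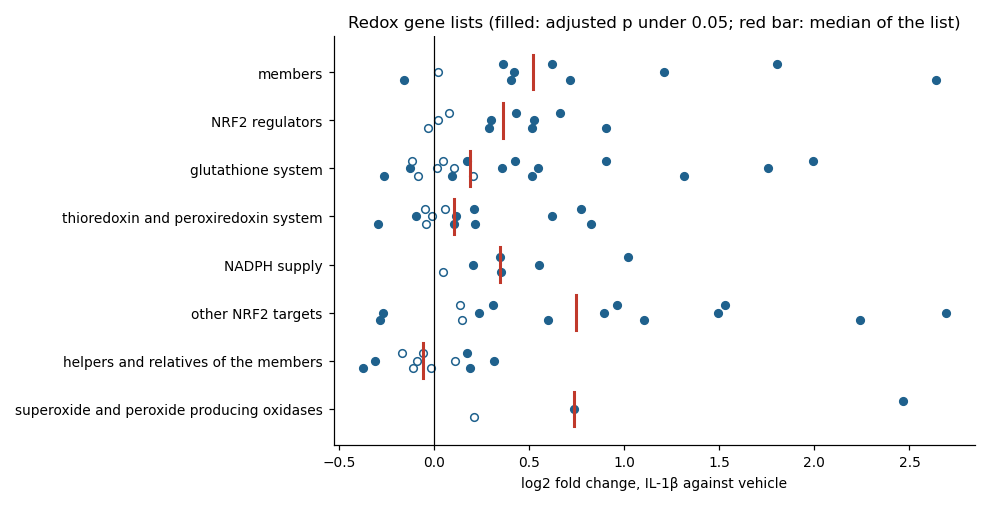
The log2 fold change between IL-1β and vehicle is plotted for each tested gene of the 10 genes and of 7 redox gene lists, filled where the edgeR adjusted p was under 0.05, with the median of each list as a red bar. The medians run from -0.06 for the helpers to 0.75 for the other NRF2 targets, and the list of 10 genes has its median at 0.52.

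The 10 genes also varied among the IL-1β samples. In IL-1β replicate 1, all 4 inducible NRF2 targets were at their highest and all 3 superoxide dismutases at their lowest, whereas 25.6% of all genes tested were highest and 28.7% were lowest in that sample. The wider lists differed in this: of their 44 genes that rose, 14 were highest and 14 lowest there. Of the 14 other NRF2 targets tested, 5 were highest and 4 lowest. The glutathione system leaned towards high values, with 8 of 18 genes highest and 1 lowest, and of the 10 NRF2 regulators 4 were highest and 2 lowest. Other lists leaned the other way, with 1 of the 11 helpers highest and 6 lowest. The thioredoxin and peroxiredoxin system had 3 of 13 genes highest and 4 lowest, NADPH supply 2 of 6 and 3, and the tested oxidases 0 of 3 and 2. Compared with the mean of the other 3 IL-1β samples, *Hmox1* was 15.7%, *Nqo1* 16.1%, *Gclm* 14.7% and *Txnrd1* 3.25% higher there, and *Sod1*, *Sod2* and *Sod3* were lower, with differences of -3.68%, -4.26% and -4.96%. This sample had the lowest total count of the 8 and the lowest value among the IL-1β samples for 8 of 10 chondrocyte markers, and the part of these in the result was not tested. Without it, the log2 fold changes were 1.16 for *Hmox1*, 0.66 for *Nqo1*, 0.36 for *Gclm* and 0.61 for *Txnrd1*, and all kept an edgeR adjusted p under 0.05.

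**Figure D5:**
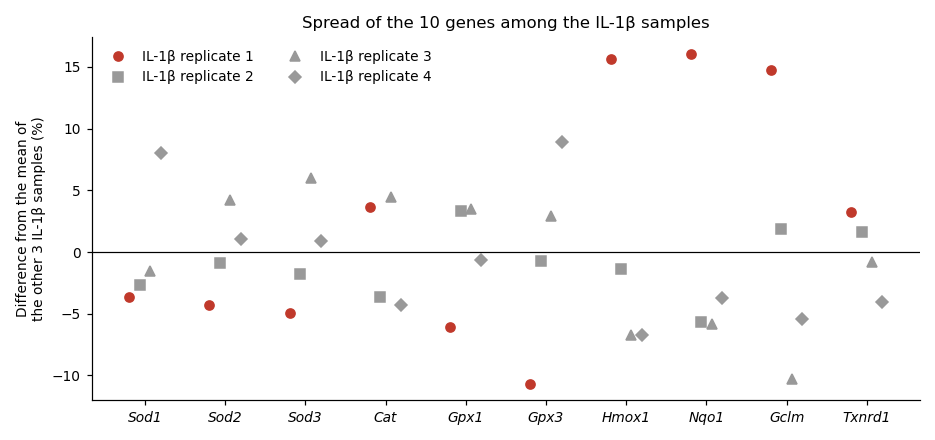
The difference of each IL-1β sample from the mean of the other 3 is plotted in percent for the 10 genes, with replicate 1 in red and replicates 2 to 4 in grey. Replicate 1 lies above 0 for *Hmox1*, *Nqo1*, *Gclm*, *Txnrd1* and *Cat* and below 0 for the superoxide dismutases, *Gpx1* and *Gpx3*.

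The total count was 10992355 to 17104351 in the IL-1β samples and 13970959 to 17456063 in the vehicle samples, and TMM factors lay between 0.984 and 1.01. All 10 chondrocyte markers were detected, with 9 lower and 1 (*Prg4*, lubricin, at 1.23) higher after IL-1β and a median log2 fold change of -1.78. The largest falls were those of *Matn1* at -2.79 and *Acan* at -2.37, which encode cartilage matrix proteins. Of 10 macrophage and leukocyte markers, 3 were tested: *Cd14* and *Cd68* rose by 1.86 and 0.67 and *Lyz2* fell by 0.60 on the log2 scale, a call that was lost under 7 of 15 alternatives (adjusted p = 0.0550 to 0.126). All 10 markers of this list summed to 30.5 to 34.1 CPM with IL-1β and 14.9 to 17.7 CPM with vehicle. Of the untested ones, *Csf1r* was the highest, with means of 0.941 CPM (IL-1β) and 0.723 CPM (vehicle), followed by *Mrc1* at 0.387 and 0.287 CPM. *Ptprc*, which defines leukocytes, had means of 0.149 and 0.107 CPM, *Adgre1* 0.0863 and 0.0324 CPM, and *Ly6g* was at 0. Erythroid markers summed to at most 1.88 CPM and endothelial markers to at most 1.72 CPM in any sample, and *Hbb-bt* was at 0. All 4 tested of 5 osteoblast markers fell, with *Ibsp* at -3.69 and *Bglap* at -1.62. All 5 osteoblast markers together summed to 29.9 to 37.1 CPM with IL-1β and 94.6 to 107 CPM with vehicle. The part of the shifts in marker levels in the results above was not tested.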

How the data were processed

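RNA-Seq of 8 samples was used, 4 treated with IL-1β and 4 with vehicle, as the labels give them. According to the paper's methods and the submitters' processing notes, the authors trimmed reads with cutadapt, mapped these to mm10 with STAR (GENCODE annotation) and assigned reads to genes by featureCounts. The deposited table gives unscaled counts for each gene symbol and a column of exon lengths in bases. The version of STAR differs between these sources, and whether the counts precede the batch correction named in the methods, and how strand was set, is not given in the sources used here.

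Counts were TMM-normalized and tested with edgeR 4.0.16 (quasi-likelihood, treatment as the only term; limma 3.58.1, R 4.3.3) over the 14404 of 54658 genes that exceeded 1 CPM in no fewer than 4 samples, and p-values were adjusted by Benjamini-Hochberg. DEGs had an adjusted p-value under 0.05 and a log2 fold change above 1 or below -1. The authors' methods name DESeq2, which was run here as an alternative (1.42.0). At the depths found, 3 counts correspond to 0.172 to 0.273 CPM, which covers counting error only. The most abundant gene took 13.2 to 14.6% of the counts per sample. Replicates of a group differed by more than sampling noise (chi-square per degree of freedom 1.98 to 6.34), and all 8 were used as separate samples.

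In simulated data, 200 of 14404 genes were changed. There edgeR recovered 97% of genes with a log2 fold change of 1 and 100% of those with 2, with 13 false calls. It made 0 calls where no gene was changed. In the data, 40.2% of the genes tested were called, and many calls had smaller changes, which the simulation did not cover. Ratios, exact permutation tests and motif searches used Python 3.11.15, numpy 2.4.6, scipy 1.17.1 and pandas 2.3.3, and figures matplotlib 3.10.9. Positions and overlaps came from GENCODE vM21 (GRCm38), in which all 10 genes had the exon length of the deposited table, and promoter sequences came from RefSeq (GRCm38.p6). Other annotated genes also overlap exon bases of further named genes, among them *Ftl1* (34.6%), *Txnip* (19.4%), *Prdx5* (19.1%), *Sqstm1* (17.3%) and *Keap1* (10.9%). The 10 genes, the gene lists and the pairs for ratios were chosen with earlier results of these data known. Genes named in the text are the 10 genes, in each list the 2 called genes with the largest rises and the 2 with the largest falls, the partner in each ratio, and *Nfe2l2*, *Keap1*, *Gclc*, *Slc7a11*, *Srxn1*, *Gpx4*, *Prdx1*, *Txn1*, *Hmox2*, *Ccs*, *Cybb* and *Nox4*. *Slc48a1*, *Blvra*, *Blvrb*, *Ftl1*, *Mafk*, *Rbx1*, *Cul3*, *Me1*, *Csf1r*, *Mrc1*, *Ptprc*, *Adgre1*, *Ly6g* and *Hbb-bt* are outside this rule and were named after their values were seen. Alternatives were DESeq2, its size factors, the total library size, other filters, a replicate block, 1 factor of unwanted variation (RUVs), each sample left out, 0.5 added to counts for ratios, a wider ARE motif, and, chosen after seeing the data, the length of the principal transcript.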

Additional observations from a re-analysis of the deposited data

Results flagged for a closer look

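Among 22 groups of 4 values compared, 2 had a sample far from the rest by the gap test of Dixon (95% level), where chance gives about 1 group in 20, or 1.1 groups. *Cat* measured 44.9 CPM in vehicle replicate 4, against 48.7 to 49.0 CPM in the other vehicle samples, a difference of -8.04% from their mean. *Nqo1* stood at 100.1 CPM in replicate 1 of the IL-1β group, whose remaining samples lay between 85.7 and 87.2 CPM. Leaving out 1 sample at a time, *Cat* kept a log2 fold change of 0.39 to 0.44 and *Nqo1* of 0.66 to 0.74.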

How the results depend on the processing

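Of 150 values of the log2 fold change of the 10 genes under 15 alternatives, 148 kept their direction and their side of the threshold. *Sod1*, which passed under none of them, turned to -0.00299 without IL-1β replicate 4 and -0.00585 without vehicle replicate 3, and ranged from -0.00585 to 0.0472 over the samples left out. The count of DEGs among all genes depended on the filter: with a CPM above 1 in all 8 samples 266 rose, and with no filter 635 rose and 571 fell, against 412 and 339. The lower genes of the thioredoxin and peroxiredoxin system numbered 1 to 2 with 1 sample left out (1 without IL-1β replicate 2). With 3 samples against 4, the exact test of ratios cannot go below 0.0571, so these 5 ratios no longer passed by construction, at log2 differences of 2.59 to 2.65 for *Sod2* to *Sod1*, 1.73 to 1.80 for *Sod3* to *Sod1*, -0.56 to -0.50 for *Gpx3* to *Gpx1*, 0.48 to 0.55 for *Txnrd1* to *Txn1* and 1.46 to 1.54 for *Hmox1* to *Hmox2*. *Lyz2* lost its call under 7 alternatives (adjusted p = 0.0550 to 0.126). The motif TGANNNNGC was found in the same 3 genes as the ARE core, against 45.1% of genes. The median log2 fold change of all genes tested moved by less than 0.1 under each scaling.

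The labels number the replicates 1 to 4 in both groups. Deviations from the group means correlated at -0.0699 to 0.0415 between samples of the same number. Between the others they correlated at -0.0850 to 0.0909, with a mean of 0.00755. No pairing by number was visible, although so few samples cannot exclude it. With the replicate block, 8 of the 10 genes rose and 1 fell, and among all genes tested 2857 rose and 2787 fell, with 411 and 340 DEGs. Depth limits *Aldh3a1*, *Mgst2*, *Cybb* and *Nox4*, which had few reads.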
